A study of Mus musculus with 20 samples.

Results

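The genes of the proteasome were compared between hearts of iron-deficient anemic (IDA) and control mice. All rows of the count table whose symbol is Psm followed by a letter from a to g and a number were taken, which gave 48 of 23420 genes. Of these, 47 passed the filter on low counts, as did 13590 genes in all. The 20 mice were male wild type C57BL/6 mice (C57BL/6J in the study's methods) aged 9 weeks. The 10 control mice received a control diet and the 10 IDA mice an iron-deficient diet, each for 6 weeks from 3 weeks of age. The labels give the iron content of the deficient diet as below 2 ppm in one field and above 2 ppm in another. The mRNA came from pulverised whole hearts, so fewer cells of a type and less RNA per cell cannot be told apart.

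The proteasome is the protease complex that degrades most short-lived and damaged intracellular proteins once they are tagged with ubiquitin, and in heart muscle it takes part in the turnover of contractile and regulatory proteins. Its barrel-shaped core is built from outer rings of alpha subunits (*Psma* genes) and inner rings of beta subunits (*Psmb* genes), of which only a few cleave peptides. A regulatory particle of ATPases (*Psmc*) and non-ATPase subunits (*Psmd*) recognises, unfolds and feeds in the substrate, and other caps (*Psme*) can take its place. In cells exposed to interferon gamma, *Psmb8*, *Psmb9* and *Psmb10* replace the constitutive catalytic subunits *Psmb5*, *Psmb6* and *Psmb7* to form the immunoproteasome, which produces peptides for antigen presentation.

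The promoters of the catalytic subunits were inspected for 4 short motifs on both strands. The RefSeq windows ran from 250 bases before to 50 bases after each gene start (build GRCm38.p6). The motifs were TGACNNNGC (the core of the antioxidant response element bound by NRF factors), CCAAT (the CCAAT box), TTCNNNGAA (the core of the interferon gamma-activated site) and ACGTG (the core of the hypoxia response element). Windows were found for 40 of the 48 members. The last 100 bases before the start are shown for 4 catalytic subunits whose stretch held a match, with the matches in capitals.
Psmb5: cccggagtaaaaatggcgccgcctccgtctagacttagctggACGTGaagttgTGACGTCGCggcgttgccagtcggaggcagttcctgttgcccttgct
Psmb6: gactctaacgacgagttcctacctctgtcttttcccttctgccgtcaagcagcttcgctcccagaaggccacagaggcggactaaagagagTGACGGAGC
Psmb8: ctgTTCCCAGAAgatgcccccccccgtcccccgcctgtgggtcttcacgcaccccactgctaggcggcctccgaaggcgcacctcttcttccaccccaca
Psmb9: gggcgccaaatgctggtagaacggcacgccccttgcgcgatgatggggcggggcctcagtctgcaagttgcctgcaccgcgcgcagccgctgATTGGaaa
The stretches lie at chr14:54617996-54618095 on the minus strand for *Psmb5*, chr11:70525257-70525356 on the plus strand for *Psmb6*, chr17:34198095-34198194 on the plus strand for *Psmb8* and chr17:34187331-34187430 on the minus strand for *Psmb9*. The antioxidant core began 47 bases before the start of *Psmb5* and 9 bases before that of *Psmb6*, both constitutive subunits. *Psmb8* held the gamma-activated core 97 bases before its start, and *Psmb9* an inverted CCAAT box 8 bases before its start. The matches within these 4 stretches did not overlap one another. Counted by gene, the antioxidant core was present in 6 of 40 members (15%) and in 14.0% of all genes with a window. CCAAT was present in 14 of 40 members (35%) and 41.1% of all such genes. The gamma-activated core was present in 3 of 40 (7.5%) and 9.55%, and ACGTG in 8 of 40 (20%) and 21.8%. These shares of the members were close to those of genes in general. *Psmb7* had no window, and *Psmb10* held a single site, beginning 116 bases before its start, that matched ACGTG on both strands.

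Control libraries held 6797180 to 8960688 counted read pairs (median 7902932) and IDA libraries 6682177 to 7833916 (median 6806177). Expression is given in CPM (read pairs scaled to library size, with TMM factors). The 8 cardiomyocyte markers were all detected, with a summed level of 4417 to 5306 CPM in control and 3882 to 5447 CPM in IDA mice. Of them, 3 were higher and 1 lower in IDA (37.5% and 12.5%, beside 35% and 32.5% of all tested genes). With the gene length correction described below, 2 were higher and 5 lower (25% and 62.5%, beside 31.5% and 23.5%). The 5 erythroid markers that could be tested summed to 168 to 268 CPM in control and 266 to 929 CPM in IDA mice. Of these, 4 were higher (80%, beside 35% of all tested genes), and all 5 were higher with the gene length correction (100%, beside 31.5%). The adult globin genes *Hba-a1* and *Hba-a2* had 0 counts in all mice, and *Hbb-b1* had 3 in total. The symbols *Hbb-bs* and *Hbb-bt* were not among the counted genes. Pairs aligned to several places were not counted, so these counts do not show that globin mRNA was absent. The study left out a mouse per group for contamination without naming it, so all 20 were kept. In the column names, library numbers fall into a lower range (5 control and 7 IDA mice) and a higher range (5 control and 3 IDA mice).

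Of the 47 tested proteasome genes, 39 were higher and 1 was lower in IDA hearts, and 7 did not pass the test. A gene was called when its adjusted p was below 0.05, where p came from the quasi-likelihood test of edgeR and was adjusted by Benjamini and Hochberg over the 13590 genes. Of all tested genes, 35% were called higher and 32.5% lower, beside 83.0% and 2.13% of the members. This background holds genes of every length, while the members are short (median exonic length 1277 bp, against 2900 bp). With the gene length correction, 25.5% of members were higher and 8.51% lower, beside 31.5% and 23.5% of all tested genes. Without it, the median log2 fold change of the members was 0.27, against 0.02 over all tested genes, and single members lay between -0.29 and 0.65. In 7 members every IDA mouse exceeded every control mouse, which is 14.9% of the members and compares with 4.97% of all tested genes. These were *Psma5*, *Psmb10*, *Psmc4*, *Psmd8*, *Psmd13*, *Psme2* and *Psmg1*. No member had all IDA mice below all control mice, which held for 6.28% of tested genes. The shares without overlap among genes of like length were not counted. Within the lower range of library numbers, 39 members were higher and 1 lower, where 30.2% of all tested genes were called higher and 28.7% lower. Within the higher range 25 members were higher and 1 lower, beside 19.4% and 24.1% of all tested genes.

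The summed level of all proteasome genes was 4666 to 5476 CPM in control mice (median 4982) and 5207 to 5979 CPM in IDA mice (median 5765). Counting per kilobase of exon, which takes exonic length out of the comparison between genes, the core genes were not represented equally in the counts left after duplicate removal. *Psmb7* stood highest among all members in control hearts at 126 CPM per kb, and 5 of the 7 genes of the alpha ring (*Psma1*, *Psma2*, *Psma4*, *Psma6* and *Psma7*) had between 81.3 and 105 CPM per kb. The other two, *Psma5* and *Psma3*, had 12.6 and 17.1 CPM per kb, although each ring holds one copy of every alpha subunit. *Psme2* had 17.8 CPM per kb against 112 for its partner *Psme1*. The counting was run without the option that includes pairs aligned to several places, and how many pairs this left out of these genes was not tested.

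The fold changes of all genes in these hearts fell with gene length, and the proteasome genes are short. Their median exonic length was 1277 bp (541 to 6442 bp), against 2900 bp for all tested genes. Across members, the log2 fold change had a Pearson's r of -0.63 and a Spearman's rho of -0.53 with the logarithm of length (47 genes from the same libraries, which are not independent replicates). Among genes of up to 1000 bp, the median log2 fold change was 0.31 for 14 members and 0.34 for all genes. Among those over 1000 and up to 1500 bp it was 0.30 for 15 members and 0.30 for all genes, and among those over 1500 and up to 2000 bp it was 0.22 for 10 members and 0.21 for all genes. At these lengths the members therefore sat at the level of other genes of their size. The medians of the longer members were above it, with 0.21 against 0.09 for 4 members over 2000 and up to 3000 bp, and 0.08 against -0.23 for 4 members over 3000 bp. *Psme3* (-0.002) and *Psme4* (-0.29) lay below the medians of all genes in their ranges. The last range reaches 104320 bp, while its members other than *Psme4* have 3053 to 3542 bp. It therefore sets them beside much longer genes too.

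**Figure D1:**
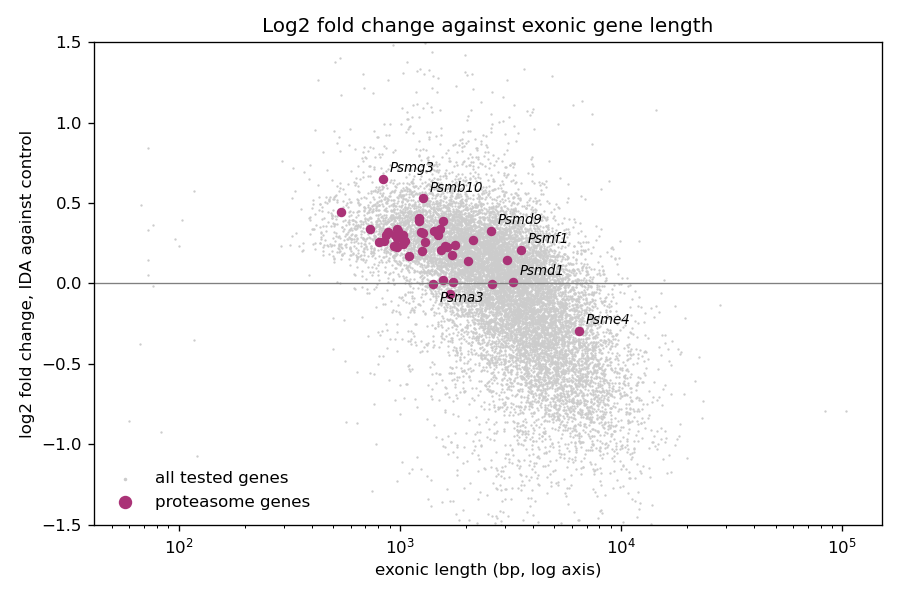
Log2 fold change of IDA against control (vertical axis) on exonic length in bp (horizontal log axis), with all tested genes in grey and the 47 tested proteasome genes in purple. Most proteasome genes lie between 541 and 2000 bp within the cloud of short genes, which has positive fold changes, while *Psmf1*, *Psmd9* and *Psmd1* lie in its upper part at their length. The 123 genes beyond 1.5 in either direction are not shown.

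Once the dependence on gene length had been removed from every library by a smooth curve (the gene length correction), 12 members were higher, 4 were lower and 31 did not pass the test, and the members' median was 0.03 against 0.04 over all genes. Of all tested genes, 31.5% were higher and 23.5% lower with this correction, compared with 25.5% and 8.51% of the members. The 12 higher members were *Psma5*, *Psmb10*, *Psmc1*, *Psmc4*, *Psmd1*, *Psmd2*, *Psmd3*, *Psmd8*, *Psmd9*, *Psmd13*, *Psmf1* and *Psmg3*. The 4 lower members were *Psma3*, *Psma4*, *Psmc6* and *Psmd11*. All of the higher ones but *Psmd1* had also been higher without the correction, and 28 members lost their call. When GC content was removed after length, 19 members were higher and 4 lower (40.4% and 8.51%), beside 26.8% and 20% of all tested genes. The 4 lower members were now *Psma7*, *Psmb2*, *Psmb5* and *Psme1*, none of which was lower with length alone. In all, 7 members were higher under all 3 treatments of the data (*Psma5*, *Psmc1*, *Psmd2*, *Psmd9*, *Psmd13*, *Psmf1* and *Psmg3*). The share of all tested genes higher under all 3 was not counted, so this number has no background beside it. *Psma5* (0.14, adjusted p = 0.0886) and *Psmc1* (0.09, adjusted p = 0.0885) lost their calls with the replicate number as a block beside the gene length correction. *Psmd2* lost its call with library size as a covariate (0.06, adjusted p = 0.0561). *Psmd9*, *Psmd13*, *Psmf1* and *Psmg3* kept theirs in both fits.

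**Figure D2:**
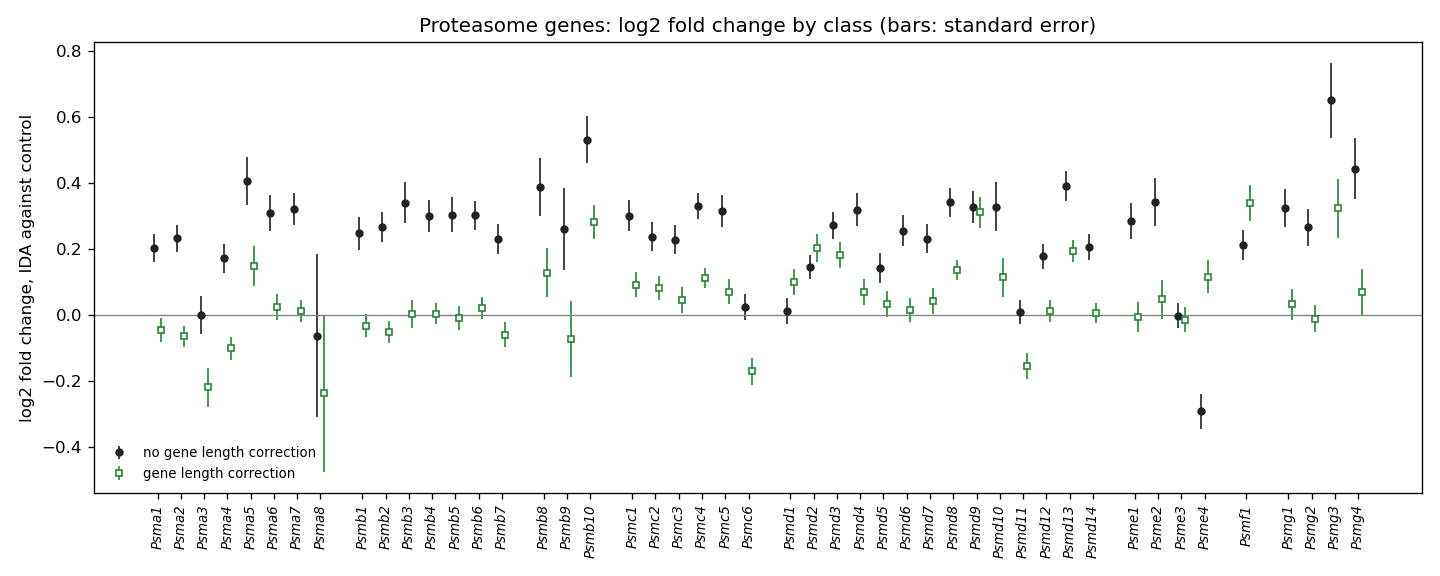
Log2 fold change of IDA against control (vertical axis) for the 47 tested proteasome genes by class, without (filled circles) and with (open squares) the gene length correction; bars are standard errors. Without the correction 43 members lie above 0, and with it they lie between -0.24 and 0.34.

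The alpha subunits form the gated outer rings of the core. Of the 8 *Psma* genes, 6 were higher in IDA (75%, beside 35% of all tested genes). These were *Psma1*, *Psma2*, *Psma4*, *Psma5*, *Psma6* and *Psma7*, and the median log2 fold change over the 8 genes was 0.22. *Psma5* rose most of them, from 13.2, 16.1 and 16.6 CPM (lowest, median and highest control mouse) to 17.1, 19.7 and 23.9 CPM in IDA, with no overlap between the groups. Its mean was 15.4 ± 1.27 CPM in control and 20.3 ± 2.39 CPM in IDA (SD, n = 10 each), a log2 fold change of 0.41 (standard error 0.07, adjusted p = 3.55e-05). *Psma5* was also the only alpha gene called higher with the gene length correction (0.15, adjusted p = 0.0412). *Psma3* did not differ beyond its spread, with 21.1 to 28.2 CPM (median 24.2) in control and 21.4 to 26.7 CPM (median 24.3) in IDA and means of 24.3 ± 2.20 and 24.3 ± 1.38 CPM (log2 fold change 0.00, standard error 0.06, adjusted p = 0.994). Corrected for gene length, *Psma3* was lower by 0.22 on the log2 scale (-0.22, adjusted p = 0.00292), as was *Psma4*, whose log2 fold change went from 0.17 to -0.10 (adjusted p = 0.0182). *Psma4* shares 45 bp of exon with a gene on the opposite strand, and pairs that fall on both genes are not counted. *Psma8*, the testis form that replaces *Psma7* in germ cells, was close to the detection filter, at 0.78 to 1.94 CPM (mean 1.30 ± 0.37) in control and 0.44 to 2.65 CPM (mean 1.23 ± 0.64) in IDA, a difference within the spread (log2 fold change -0.06, standard error 0.25, adjusted p = 0.834). The other 4 higher genes had log2 fold changes between 0.20 and 0.32 before the correction, with all 10 IDA mice above the control mean in each.

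All 7 tested constitutive beta genes (*Psmb1* to *Psmb7*) were higher in IDA (100%, beside 35% of all tested genes). Their log2 fold changes had a narrow range from 0.23 to 0.34, and in each gene the 10 IDA mice exceeded the control mean. The structural subunits *Psmb1*, *Psmb2*, *Psmb3* and *Psmb4*, which do not cleave peptides, had log2 fold changes of 0.25, 0.27, 0.34 and 0.30. Under the gene length correction, the 7 lay between -0.06 and 0.02 and none was called in either direction. *Psmb11*, the thymus-specific catalytic subunit, had 0 counts in all 20 mice, which at 3 counts per library allows a level of up to 0.338 to 0.467 CPM by counting error alone.

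*Psmb5* carries the chymotrypsin-like activity. It ranged from 44.7 to 56.7 CPM (median 51.1) in control and from 55.7 to 69.2 CPM (median 62.1) in IDA. The lowest IDA mouse was the only one within the control range, and the means were 50.5 ± 4.45 and 62.3 ± 4.37 CPM (SD, n = 10 each), a log2 fold change of 0.30 (standard error 0.05, adjusted p = 3.09e-05). The microRNA gene *Mir686* shares 109 bp with its exons on the same strand, and pairs that fall on both genes are not counted. *Psmb6*, the caspase-like subunit, ranged from 92.4 to 110 CPM (median 97.7) in control and from 108 to 131 CPM (median 124) in IDA, with means of 98.8 ± 6.31 and 122 ± 8.30 CPM (log2 fold change 0.30, standard error 0.04, adjusted p = 3.92e-06). *Psmb7*, the trypsin-like subunit, ranged from 111 to 139 CPM (median 119) and from 130 to 152 CPM (median 148), with means of 122 ± 9.73 and 144 ± 8.84 CPM and a wider overlap (0.23, standard error 0.05, adjusted p = 0.000143). After correction for gene length, the 3 genes had log2 fold changes of -0.01, 0.02 and -0.06, and their adjusted p-values were 0.834, 0.617 and 0.19. With length and GC content removed, *Psmb5* was lower (-0.19, adjusted p = 0.000504), *Psmb7* was higher (0.14, adjusted p = 0.00412) and *Psmb6* was not called (-0.03, adjusted p = 0.469).

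Of the 3 immunoproteasome subunits, *Psmb8* and *Psmb10* were higher in IDA (66.7%, beside 35% of all tested genes). In mm10, *Psmb8* (chromosome 17, 34198195 to 34201454, plus strand) and *Psmb9* (chromosome 17, 34182099 to 34187330, minus strand) lie close together in the major histocompatibility complex, whereas *Psmb10* lies on chromosome 8 (105935728 to 105938392, minus strand). *Psmb10* showed the greatest change of any beta gene, from 59.2, 73.7 and 84.3 CPM (lowest, median, highest control mouse) to 84.6, 107 and 127 CPM in IDA. Every IDA mouse was above every control mouse, with means of 73.9 ± 7.16 and 107 ± 13.8 CPM (SD, n = 10 each), a log2 fold change of 0.53 (standard error 0.07, adjusted p = 1.23e-06). It remained higher with the gene length correction (0.28, adjusted p = 8e-05), but when GC content was removed as well it missed the threshold (0.10, adjusted p = 0.0559). *Psmb8* ranged from 24.8 to 42.5 CPM (median 30.4) in control and from 33.7 to 51.0 CPM (median 41.0) in IDA, with means of 32.3 ± 4.85 and 42.1 ± 5.85 CPM and some overlap between the groups (log2 fold change 0.39, standard error 0.09, adjusted p = 0.000468). Corrected for gene length, its log2 fold change was 0.13 (adjusted p = 0.146). *Psmb9* had 12.8 to 27.4 CPM (median 15.9) in control and 14.3 to 24.9 CPM (median 20.03) in IDA, with means of 16.9 ± 4.42 and 20.3 ± 3.20 CPM (SD, n = 10 each). This difference did not pass the test (0.26, standard error 0.12, adjusted p = 0.0684). Its sign depended on the correction, with -0.07 for gene length (adjusted p = 0.611) and -0.20 for length and GC content (adjusted p = 0.165).

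**Figure D3:**
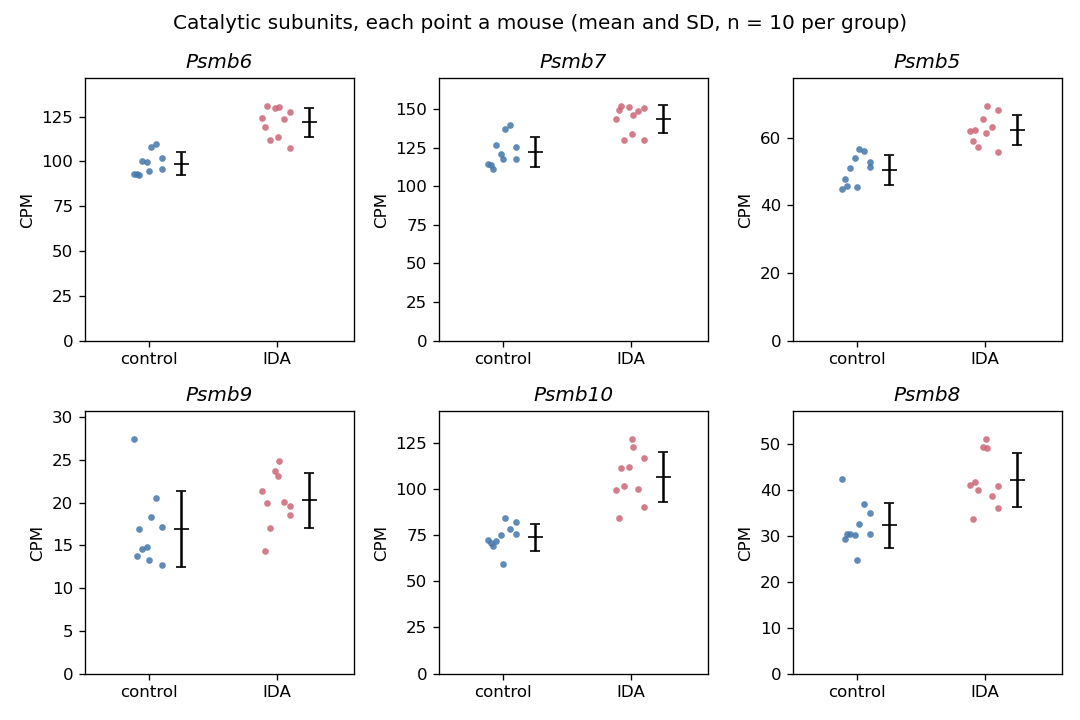
Level in CPM (vertical axes from 0) of the constitutive catalytic subunits (top row) and, below each, the immunoproteasome subunit that replaces it, by diet; points are mice, and bars are the mean and SD of 10 mice. *Psmb10* has no overlap between the groups, and 1 control mouse lies above the other controls for *Psmb9* (27.4 CPM) and *Psmb8* (42.5 CPM).

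A single control mouse, control replicate 9, had the highest level of its group for both *Psmb8* (42.5 CPM, against 24.8 to 36.9 in the other controls) and *Psmb9* (27.4 CPM, against 12.8 to 20.6). The same mouse had 48.8 CPM of *Nlrc5*, the activator of class I major histocompatibility genes (11.6 to 16.7 in the other controls), and 81.6 CPM of the peptide transporter *Tap1* (25.8 to 49.9). Its levels of *Psmb10* (72.4 CPM), *Psme1* (106 CPM) and *Psme2* (18.1 CPM) were within the range of the other controls. Without it, *Psmb9* was called higher in IDA (0.36, standard error 0.10, adjusted p = 0.00408). *Psmb9* also passed the threshold without control replicate 2 (0.29, adjusted p = 0.0457) or without IDA replicate 7 (0.30, adjusted p = 0.03). *Psmb8* and *Psmb10* kept their calls without control replicate 9, with 0.44 (adjusted p = 7.46e-05) and 0.53 (adjusted p = 3.97e-06).

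To set each immunoproteasome subunit against the constitutive subunit it replaces, the log2 ratio of their CPM was compared between the diets in a two-sided permutation test with 100000 resamples, adjusted over the 3 ratios. *Psmb10* over *Psmb7* was -0.99, -0.69 and -0.60 in control mice (lowest, median, highest) and -0.82, -0.44 and -0.07 in IDA mice. It was higher in IDA by 0.29 (standard error 0.07, permutation p = 0.00057, adjusted p = 0.00171), with 9 of 10 IDA mice above the control mean. The difference was 0.21 within the lower range of library numbers (exact permutation test, adjusted p = 0.182) and 0.40 within the higher range (adjusted p = 0.0536), so it did not pass the threshold in either range alone. Under the gene length correction, it was 0.34 (permutation test, adjusted p = 0.00057), and with length and GC content removed it was -0.04 (adjusted p = 0.529). The longest annotated transcript of *Psmb7* has 40.8% GC and that of *Psmb10* 56.5%.

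*Psmb8* over *Psmb5* differed by 0.08 (standard error 0.09, adjusted p = 0.565 in the permutation test), with 7 of 10 IDA mice above the control mean. Without control replicate 9 the difference was 0.15 (adjusted p = 0.0492). *Psmb9* over *Psmb6* differed by -0.03 (standard error 0.12, adjusted p = 0.855). Taking the 6 catalytic genes per kilobase, the 3 immunoproteasome genes made up 24.0 to 32.7% of the summed level in control (mean 27.4% ± 2.24, SD, n = 10) and 24.96 to 34.9% in IDA (mean 29.8% ± 2.57), and the groups overlapped over most of their range.

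**Figure D4:**
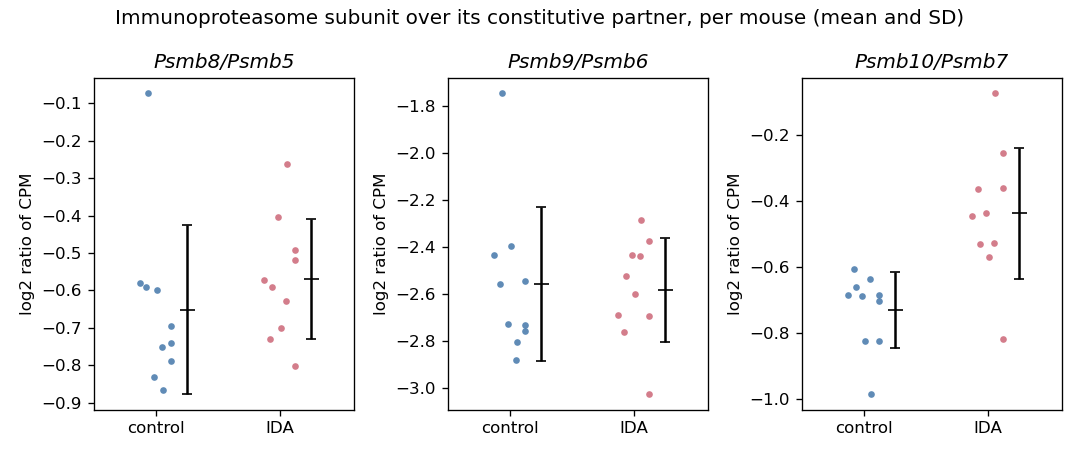
Log2 ratio of CPM (vertical axes) of each immunoproteasome subunit to its constitutive partner, by diet; points are mice, and bars are the mean and SD of 10 mice. The *Psmb10* to *Psmb7* ratio is higher in IDA by 0.29 although its groups overlap, and the groups of the other ratios overlap too, with control replicate 9 above the other controls in both.

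The *Psmc* genes encode the 6 ATPases that form the motor ring of the regulatory particle. *Psmc1* to *Psmc5* were higher in IDA (83.3% of the class, beside 35% of all tested genes), with log2 fold changes of 0.23 to 0.33, and *Psmc6* was not called. *Psmc4* changed most, from 111, 120 and 133 CPM (lowest, median, highest) to 140, 152 and 164 CPM, without overlap. Its means were 121 ± 7.91 and 153 ± 7.96 CPM (SD, n = 10 each), a log2 fold change of 0.33 (standard error 0.04, adjusted p = 5.78e-07). *Psmc6* had 128 to 155 CPM (median 137, mean 140 ± 8.35) in control and 132 to 154 CPM (median 142, mean 142 ± 8.01) in IDA, a difference smaller than the spread (log2 fold change 0.02, standard error 0.04, adjusted p = 0.605). *Psmc6* lay below the control mean in 4 of 10 IDA mice whereas *Psmc1* to *Psmc5* were above it in all 10. After correction for gene length, *Psmc1* (0.09, adjusted p = 0.0396) and *Psmc4* (0.11, adjusted p = 0.00337) remained higher and *Psmc6* was lower (-0.17, adjusted p = 0.0012). With length and GC content removed, *Psmc6* (37.0% GC) was instead higher (0.10, adjusted p = 0.0385).

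Of the 14 *Psmd* genes, 12 were higher and none lower in IDA (85.7% and 0%, beside 35% and 32.5% of all tested genes). Their median log2 fold change was 0.24. These genes encode the scaffold and lid of the regulatory particle and some chaperones of its assembly. *Psmd13*, a lid subunit, changed most, from 104, 113 and 123 CPM to 131, 147 and 166 CPM (lowest, median, highest) without overlap, with means of 113 ± 7.36 and 148 ± 10.5 CPM (SD, n = 10 each), a log2 fold change of 0.39 (standard error 0.05, adjusted p = 3.87e-07). *Psmd11*, which is also a lid subunit, changed least, with 97.4 to 111 CPM (median 101) in control and 96.4 to 112 CPM (median 102) in IDA and means of 103 ± 4.43 and 103 ± 5.40 CPM (0.01, standard error 0.04, adjusted p = 0.854). The lid genes *Psmd3*, *Psmd6*, *Psmd7*, *Psmd8*, *Psmd12* and *Psmd14*, the last of which encodes the enzyme that removes ubiquitin from the substrate, had log2 fold changes of 0.27, 0.26, 0.23, 0.34, 0.18 and 0.21.

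Among the scaffold subunits of the base, *Psmd2* was higher, with 277 to 323 CPM (median 292) in control and 294 to 342 CPM (median 330) in IDA (0.14, adjusted p = 0.00135), and *Psmd1* did not pass the test (0.01, adjusted p = 0.8). *Psmd4*, a ubiquitin receptor, had a log2 fold change of 0.32 (adjusted p = 6.97e-06). The assembly chaperones of the base, *Psmd5*, *Psmd9* and *Psmd10*, were all higher (0.14, 0.33 and 0.33). *Psmd9* ranged from 40.1 to 47.2 CPM (median 41.4) in control and from 46.9 to 60.3 CPM (median 53.0) in IDA, and only the lowest IDA mouse fell below the highest control mouse.

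With the gene length correction, 6 *Psmd* genes were higher and 1 lower (42.9% and 7.14%, beside 31.5% and 23.5% of all tested genes). *Psmd9* was hardly moved by it (0.31, adjusted p = 9.61e-06, compared with 0.33 before) and *Psmd13* remained higher (0.19, adjusted p = 4.16e-05). *Psmd2* (0.20, adjusted p = 0.000357), *Psmd3* (0.18, adjusted p = 0.00055) and *Psmd8* (0.14, adjusted p = 0.000652) also remained higher. *Psmd1*, which at 3256 bp is the longest of the class, was called higher only with the correction (0.10, adjusted p = 0.043). *Psmd11* was lower with it (-0.15, adjusted p = 0.00217), and *Psmd4*, *Psmd5*, *Psmd6*, *Psmd7*, *Psmd10*, *Psmd12* and *Psmd14* lost their calls, with log2 fold changes of 0.01 to 0.11.

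The *Psme* caps divided by gene, with 50% higher and 25% lower, beside 35% and 32.5% of all tested genes. *Psme1* (chromosome 14, 55578494 to 55581527, plus strand) and *Psme2* (chromosome 14, 55587440 to 55591101, minus strand), which form the interferon-inducible activator ring, were higher in IDA, *Psme3*, the nuclear activator, did not pass the test, and *Psme4*, the large single-chain activator, was the only proteasome gene that was lower. *Psme1* ranged from 99.9 to 122 CPM (median 109, mean 109 ± 7.96) in control and from 113 to 147 CPM (median 137, mean 133 ± 13.2) in IDA (log2 fold change 0.28, standard error 0.06, adjusted p = 0.0001). *Psme2* went from 14.3, 17.5 and 19.3 CPM to 19.5, 21.0 and 27.0 CPM (lowest, median, highest), with means of 17.4 ± 1.65 and 22.01 ± 2.57 CPM and no overlap (0.34, standard error 0.07, adjusted p = 0.00027). *Psme3* had 148 to 165 CPM (median 158) in control and 146 to 173 CPM (median 155) in IDA, with means of 157 ± 5.85 and 157 ± 10.3 CPM (0.00, standard error 0.04, adjusted p = 0.959).

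*Psme4* had 529, 596 and 633 CPM in control and 404, 479 and 584 CPM in IDA (lowest, median, highest). Each of the 10 IDA mice lay below the control mean and the ranges overlapped, with means of 593 ± 31.5 and 484 ± 51.7 CPM (SD, n = 10 each), a log2 fold change of -0.29 (standard error 0.05, adjusted p = 4.41e-05). *Psme4* lies on chromosome 11 (30771775 to 30880361, plus strand, mm10) and at 6442 bp of exon is the longest member. Corrected for gene length, its log2 fold change was 0.12 (adjusted p = 0.0502), and with length and GC content removed it was higher in IDA (0.27, adjusted p = 0.000295), so its direction depends on the correction. *Psme1*, *Psme2* and *Psme3* had log2 fold changes of -0.01, 0.05 and -0.01 with the gene length correction, and none passed the test. With length and GC content removed, *Psme1* was lower (-0.18, adjusted p = 0.00517).

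**Figure D5:**
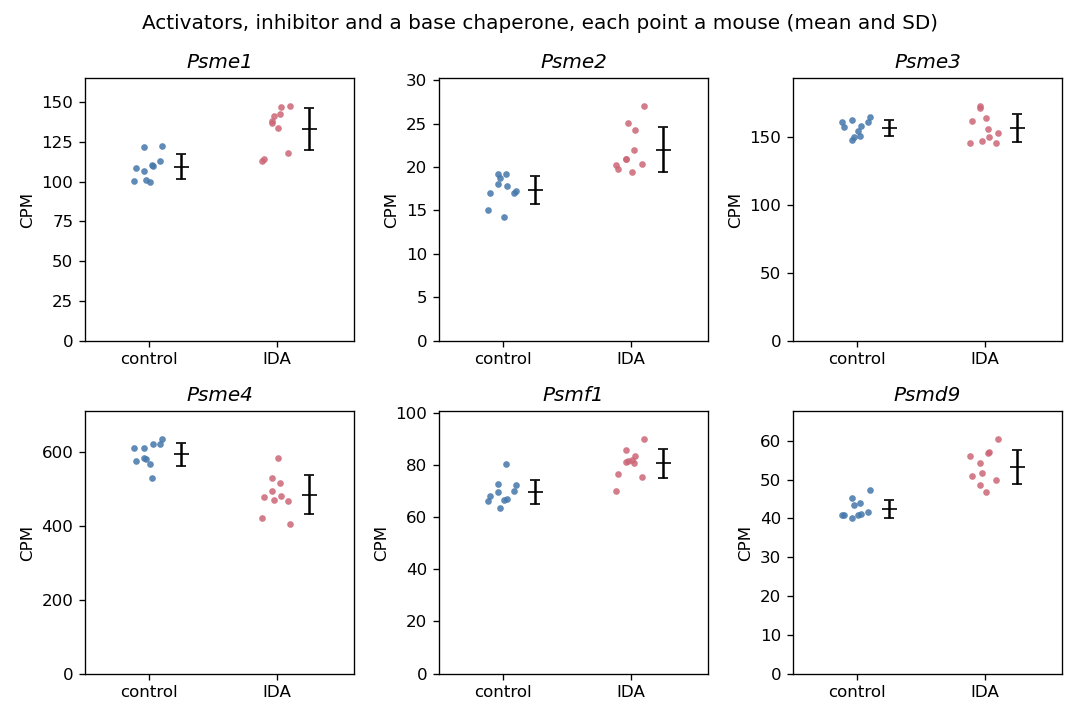
Level in CPM (vertical axes from 0) of the caps *Psme1* to *Psme4*, the inhibitor *Psmf1* and the base chaperone *Psmd9*, by diet; points are mice, and bars are the mean and SD of 10 mice. *Psme2* separates the groups, *Psme3* does not, and *Psme4* is the member that is lower in IDA (484 against 593 CPM on average).

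*Psmf1* encodes a binding partner of the core that inhibits it in vitro. It had 63.5 to 80.4 CPM (median 69.0) in control and 70.2 to 89.8 CPM (median 81.4) in IDA, with means of 69.7 ± 4.70 and 80.7 ± 5.51 CPM (SD, n = 10 each), a log2 fold change of 0.21 (standard error 0.05, adjusted p = 0.00035). It lies on chromosome 2 (151716062 to 151741293, minus strand, mm10) and is one of the longer members (3542 bp), and the gene length correction raised its log2 fold change to 0.34 (adjusted p = 1.86e-05).

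The *Psmg* genes encode the chaperones that assemble the alpha ring and are not part of the finished proteasome. All 4 were higher in IDA (100%, beside 35% of all tested genes). *Psmg3*, on chromosome 5 (139823594 to 139826843, minus strand, mm10), showed the largest log2 fold change of all members, from 10.8, 13.7 and 17.3 CPM in control to 13.4, 21.3 and 31.2 CPM in IDA (lowest, median, highest), with means of 13.7 ± 1.93 and 21.5 ± 4.70 CPM (SD, n = 10 each). This 1.57-fold increase (log2 fold change 0.65, standard error 0.11) had an adjusted p of 3.01e-05, and 9 of 10 IDA mice were above the control mean. Its binding partner *Psmg4* had 0.44 (adjusted p = 0.000216). The other pair, *Psmg1* and *Psmg2*, had 0.32 (adjusted p = 2.91e-05) and 0.26 (adjusted p = 0.000272), with 45.2 to 60.0 CPM (median 49.0) of *Psmg2* in control (mean 51.5 ± 5.34) and 56.8 to 69.7 CPM (median 61.5) in IDA (mean 61.8 ± 4.24). Under the gene length correction, *Psmg3* remained higher (0.32, adjusted p = 0.00379) and *Psmg1*, *Psmg2* and *Psmg4* did not (0.03, -0.01 and 0.07).

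Genes that work with the proteasome were counted from a list of 31 ubiquitin and proteasome factors, of which 30 were tested. Of these, 14 were higher, 7 lower and 9 not called, with a median log2 fold change of 0.05 and a median length of 3108 bp. These are 46.7% and 23.3% of the list, beside 35% and 32.5% of all tested genes. With the gene length correction 11 were higher and 7 lower (36.7% and 23.3%, beside 31.5% and 23.5%). *Adrm1*, a ubiquitin receptor of the regulatory particle, was 28.7 to 40.3 CPM (median 32.6) in control and 39.2 to 50.1 CPM (median 42.6) in IDA (0.37, standard error 0.06), and was higher with and without the correction (with it 0.16, adjusted p = 0.0113). *Pomp*, the chaperone that matures the core, was higher without it (0.29, standard error 0.05) and had -0.05 with it (adjusted p = 0.143).

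The ubiquitin-removing enzymes of the proteasome also depended on the correction. *Usp14* had a log2 fold change of -0.05 (adjusted p = 0.315) without it and was higher with it (0.16, adjusted p = 0.00937), and *Uchl5* was higher without it (0.12, adjusted p = 0.0256) but not with it (-0.02, adjusted p = 0.718). The call for *Uchl5* was lost without control replicate 7, control replicate 8 or IDA replicate 1 (0.10, with adjusted p-values of 0.0553, 0.0623 and 0.0592). *Nfe2l1*, the factor that raises proteasome genes when the proteasome is impaired, had 626 to 722 CPM (median 654) in control and 597 to 744 CPM (median 687) in IDA (0.00, standard error 0.04, adjusted p = 0.957), and *Nfe2l2* had -0.09 (adjusted p = 0.0819). After correction for gene length, *Nfe2l1* was higher (0.28) and *Nfe2l2* lower (-0.12, adjusted p = 0.0197).

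Of the muscle ubiquitin ligases, *Trim63* was higher, from 204 to 253.4 CPM (median 224) in control to 240 to 275 CPM (median 264) in IDA (0.22, standard error 0.04), and *Fbxo32* was lower, from 342 to 495 CPM (median 404) to 262 to 424 CPM (median 338) (-0.29, standard error 0.08, adjusted p = 0.0036). Neither passed the test with the gene length correction, where *Trim63* had 0.08 (adjusted p = 0.0933) and *Fbxo32* 0.16 (adjusted p = 0.0732). *Uba6* and *Ddi2* fell most in the list and were chosen for mention after their values were seen. *Uba6*, an alternative ubiquitin-activating enzyme, was 18.5 to 36.1 CPM (median 28.6) in control and 8.75 to 18.4 CPM (median 10.6) in IDA (-1.24, standard error 0.14), and *Ddi2*, a protease that activates *Nfe2l1* protein, had -0.77 (standard error 0.16). Both remained lower with the gene length correction (-0.94 and -0.65).

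Of the 12 genes of antigen processing that act beside the immunoproteasome, 5 were higher (*Tap2*, *Tapbp*, *H2-K1*, *H2-D1* and *Calr*), 2 lower (*Erap1* and *Nlrc5*) and 5 not called, with a median log2 fold change of 0.10. These are 41.7% and 16.7% of the list, beside 35% and 32.5% of all tested genes. The peptide transporter subunit *Tap2* was 73.6 to 108 CPM (median 89.1) in control and 97.5 to 124 CPM (median 108) in IDA (0.23, standard error 0.06, adjusted p = 0.00192), and its partner *Tap1* had 0.00 (standard error 0.15, adjusted p = 0.989), or 0.17 without control replicate 9 (adjusted p = 0.149). Of the transcriptional regulators in the list, neither was called higher in IDA. *Irf1* had -0.02 (adjusted p = 0.865) and *Nlrc5* -0.84 (standard error 0.22, adjusted p = 0.0018), the latter being -0.53 without control replicate 9 (adjusted p = 0.000283). The call for *Nlrc5* was lost with the gene length correction (-0.37, adjusted p = 0.152) and with length and GC content removed (-0.45, adjusted p = 0.0861). It was also lost with the erythroid markers, which moved with the diet, in the model (-0.36, adjusted p = 0.437). The shared class I chain *B2m* had 0.10 (adjusted p = 0.0763) and passed the threshold without control replicate 1, control replicate 2 or IDA replicate 5 (0.12 in each, adjusted p-values of 0.0251, 0.0306 and 0.0402). Corrected for gene length, 4 genes of the list were higher and 2 lower (33.3% and 16.7%, beside 31.5% and 23.5% of all tested genes). *B2m* was among the lower (-0.21, adjusted p = 0.000367).

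Leukocytes are rich in immunoproteasome, and the 10 leukocyte markers that were tested summed to 533 to 610 CPM (median 573) in control and 562 to 657 CPM (median 615) in IDA, with 6 higher and 2 lower (60% and 20%, beside 35% and 32.5% of all tested genes). With the gene length correction 4 were higher and 0 lower (40% and 0%, beside 31.5% and 23.5%). Their median log2 fold change was 0.20 without the correction and -0.003 with it. The T cell marker *Cd3e* did not reach the filter. When the mean of the 5 erythroid markers was added to the model, 38 members were higher and 2 lower (80.9% and 4.26%, beside 26.5% and 26.1% of all tested genes). In that fit *Psmb10* had a log2 fold change of 0.68 (adjusted p = 0.000113). These markers moved with the diet (*Slc4a1* was 1.69 to 4.20 CPM in control and 4.86 to 122 CPM in IDA mice). The fit therefore cannot tell erythroid content from diet. The part of the leukocyte markers in the changes of *Psmb8* and *Psmb10* was not tested.

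Counts rested on read pairs left after the authors removed duplicates. *Myl2*, a ventricular myosin light chain, had 2.16 read pairs per exonic base on average and *Tnni3*, the cardiac troponin inhibitor, 1.92, against 1.20 at the 99th percentile of tested genes. *Psmb7*, the most densely covered member, had 0.97 in control and 1.06 in IDA. The part of duplicate removal in the size of the fold changes, in the levels compared between genes and in the immunoproteasome share was not tested.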

How the data were processed

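RNA-seq counts of 20 whole hearts were analysed. The authors selected mRNA with poly-(A), used STAR to align paired reads to mm10, samtools to remove PCR duplicates, and featureCounts (version 1.4.5-p1) to count exonic read pairs by gene, without strand and without pairs aligned to several places or falling on several genes. The authors deposited these counts without normalization, in a table with the exonic length and position of each gene. Mice were grouped by their labels, and nothing was left out.

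Analyses were run in R 4.3.3. Genes reaching 1 CPM in 10 or more mice were normalized by TMM and tested with edgeR's quasi-likelihood test (version 4.0.16) with diet as the only factor, over all genes, and adjusted by Benjamini and Hochberg. Standard errors were taken from the fold change and its F statistic. CPM ratios used a prior count of 2. For the gene length correction, log2 values were centred by gene, a loess curve on log2 exonic length (span 0.5, degree 1) was drawn through them for every library, and the curve was entered as offsets, which takes out all dependence on length, whatever its source. A further correction drew a second curve, on GC content, through what the length curve had left. GC content was that of the longest annotated transcript of each gene, not of the counted exons (99.3% of tested genes, all 47 tested members). Alternatives were DESeq2 (version 1.42.0), its size factors, no filter, p below 0.01 in both packages, covariates for library size and erythroid markers, the replicate number as a block and leaving out each mouse. The library number ranges, and the length and GC correction of the CPM ratios, were added after the data were seen.

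The members and gene lists were chosen with earlier results of these data known. Full values are given for the catalytic and immunoproteasome genes, the caps, *Psmf1*, and the tested member with the highest and lowest log2 fold change in each of the *Psma*, *Psmc*, *Psmd* and *Psmg* classes, and shorter values for listed genes picked by role. One gene of the antigen processing list was left out of it and is not reported here. Members whose call or direction changed with the gene length correction are named. Promoter windows are from RefSeq (GRCm38.p6). At this depth a level of 1 CPM rests on few read pairs, and the labels do not say more of how the mice were bred or sampled. The steps were tested on simulated counts.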

Additional observations from a re-analysis of the deposited data

Results flagged for a closer look

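In the 10 mice of each diet, a highest or lowest mouse was counted as standing apart when its gap to the nearest other mouse relative to the group's range exceeded Dixon's 95% critical value. Of 120 groups examined, 4 had such a mouse, and chance gives about 1 in 20. *Psmg1* in IDA replicate 1 was 52.7 CPM, against 44.3 CPM in the next mouse. Control replicate 9 stood apart in the other 3, with 81.6 CPM of *Tap1* (next 49.9), 88.2 CPM of *Irf1* (next 70.9) and 48.8 CPM of *Nlrc5* (next 16.7). Without control replicate 9 the log2 fold change of *Irf1* was 0.05 (adjusted p = 0.55).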

How the results depend on the processing

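The 39 higher members, the 1 lower member and the median were nearly unmoved by DESeq2, by its size factors in edgeR, by dropping the filter, by p below 0.01 in both packages (each with 39 and 1) and by the library number range as a covariate. Leaving out each mouse gave 39 to 40 higher members, 1 lower and a median of 0.24 to 0.29, 2 to 3 higher immunoproteasome genes, 11 to 15 higher and 6 to 8 lower ubiquitin-proteasome genes, and 5 to 7 higher and 2 lower antigen processing genes. The same fits gave ratio differences of 0.25 to 0.34 (*Psmb10* over *Psmb7*), 0.047 to 0.15 (*Psmb8* over *Psmb5*) and -0.06 to 0.06 (*Psmb9* over *Psmb6*).

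With the gene length correction, 12 members were higher and 4 lower (median 0.032), made up of 1 higher and 2 lower *Psma*, 0 higher constitutive *Psmb*, 1 higher immunoproteasome gene, 2 higher and 1 lower *Psmc*, 6 higher and 1 lower *Psmd*, 0 higher and 0 lower *Psme*, and 1 higher *Psmg*. Among genes called with or without the correction, the log2 fold changes that changed sign were *Psma1* -0.046, *Psma2* -0.066, *Psma4* -0.10, *Psmb1* -0.033, *Psmb2* -0.052, *Psmb5* -0.0098, *Psmb7* -0.060, *Psmc6* -0.17, *Psmd11* -0.15, *Psme1* -0.0072, *Psme4* 0.12, *Psmg2* -0.012, *Pomp* -0.054, *Usp14* 0.16, *Uchl5* -0.020, *Fbxo32* 0.16 and *B2m* -0.21. With length and GC content removed, 19 members were higher and 4 lower (median 0.054), with 1 lower *Psma*, 1 higher and 2 lower constitutive *Psmb*, 0 higher immunoproteasome genes, 3 higher *Psmc*, 1 higher *Psme*, 1 higher *Psmg* and 2 higher antigen processing genes, and the ratio of *Psmb10* to *Psmb7* was -0.040. Here the changes of sign among genes called in either fit were *Psma7* -0.18, *Psmb1* -0.014, *Psmb2* -0.087, *Psmb4* -0.066, *Psmb5* -0.19, *Psmb6* -0.031, *Psmc3* -0.10, *Psmd4* -0.019, *Psme1* -0.18, *Psme2* -0.040, *Psme4* 0.27, *Psmg1* -0.018, *Psmg4* -0.076, *Pomp* -0.033, *Usp14* 0.39 and *Fbxo32* 0.27. *Psmb9*, called neither before nor after, also changed sign under both corrections (-0.073 and -0.20).

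Library size as a covariate gave 2 lower members (1 of them *Psmc*), a median of 0.16 and 3 higher antigen processing genes, and changed the sign of *Psmc6* -0.071 and *Nfe2l1* -0.10. The erythroid covariate, which moved with the diet, gave 2 lower members, both *Psme*, and 1 lower antigen processing gene. Within the higher range of library numbers, 25 members were higher, with 2 *Psma*, 3 *Psmc* and 7 *Psmd* genes, and 3 ubiquitin-proteasome and 1 antigen processing gene were higher. The *Psmb10* to *Psmb7* ratio was 0.21 and 0.40 within the lower and higher range and passed the threshold in neither. The causes were not tested.

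Same-numbered mice did not deviate together (correlations of -0.28 to 0.26, with 3 of 10 above 0.1 and 3 of 10 mice best matched to their own number), so the numbers were not taken to pair the mice. With the replicate number as a block, 40 members were higher and 1 lower, *Psmb9* among the higher (0.28, adjusted p = 0.0335). The block with the gene length correction gave 9 higher and 3 lower members (median 0.029), with 0 higher and 1 lower *Psma*, 0 higher constitutive *Psmb*, 1 higher immunoproteasome gene, 1 higher and 1 lower *Psmc*, 5 higher and 1 lower *Psmd*, 0 higher and 0 lower *Psme* and 1 higher *Psmg*. With this block the log2 fold changes that changed sign among genes called in either fit were *Psma1* -0.046, *Psma2* -0.065, *Psma4* -0.10, *Psmb1* -0.032, *Psmb2* -0.052, *Psmb5* -0.0090, *Psmb7* -0.062, *Psmc6* -0.17, *Psmd11* -0.16, *Psme1* -0.010, *Psme4* 0.12, *Psmg2* -0.011, *Pomp* -0.054, *Usp14* 0.16, *Uchl5* -0.021, *Fbxo32* 0.16 and *B2m* -0.21.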
